A study of Danio rerio with 6 samples.

Results

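The clustered protocadherins were followed across 6 RNA sequencing libraries of zebrafish mid-sections at 3 days post fertilization (dpf). The 3 mutant libraries came from embryos homozygous for *dgat2* sa13945 with opaque yolks, and the 3 wild-type libraries from their siblings with normal yolks. The sa13945 allele is a nonsense mutation from a chemical mutagenesis screen, kept on a Hubrecht long-fin background and then crossed into the AB strain. The study's authors describe sa13945 as possibly short of a full loss of function, and its transcript is not degraded. Clutches 2, 3 and 4 each gave 1 pool of 6 mutant embryos and 1 pool of 6 wild-type embryos, all progeny of heterozygous parents. Head and tail had been cut off, so each pool held the yolk sac, with its yolk syncytial layer (YSL), and the dorsal trunk. The members were the genes whose name in the count table began with *pcdh1a*, *pcdh1b*, *pcdh1g*, *pcdh2a*, *pcdh2b* or *pcdh2g* followed by further digits or letters. There were 33 of them among the 32520 genes of the table, 20 in the *pcdh1* cluster and 13 in the *pcdh2* cluster. The *pcdh1* members were 3 alpha and 17 gamma genes, and the *pcdh2* members were 12 alpha genes and 1 gamma gene.

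Clustered protocadherins are adhesion proteins of the cadherin superfamily, found chiefly on neurons, where matching isoforms on apposed membranes bind each other. Each name stands for a large variable exon with its own promoter, which encodes the extracellular cadherin repeats, the transmembrane segment and the start of the cytoplasmic tail. The variable exon is spliced to a short set of constant exons at the end of the array, so all alpha isoforms of a cluster share an ending, as do all gamma isoforms. In mice, single neurons choose a few of these promoters, a choice that involves DNA methylation and looping by CTCF and cohesin, and the resulting combinations let a neuron tell its own branches from those of its neighbors. Teleost fish carry duplicated clusters, *pcdh1* and *pcdh2*.

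By name, 18 of the 20 *pcdh1* members could be placed in the gene order of assembly GRCz12tu, and all 18 lay on chromosome 10, the chromosome of *dgat2*. Of the *pcdh2* members 10 could be placed, all on chromosome 14. Between *dgat2* and the nearest *pcdh1* member lay 284 annotated genes of the 1324 on the chromosome. The 3 *pcdh1* alpha genes were annotated to the same last base, as were 14 of the 15 placed *pcdh1* gamma genes as transcripts with common constant exons do. In siblings sorted by the mutation, the chromosome 10 copies that travel with sa13945 and the loss of Dgat2 itself cannot be told apart. The shared exons also bear on the counting. Of the members' estimated counts above 0, 99.5% were not whole numbers (190 of 191, at a tolerance of 0.005), against 28.7% over all genes. Such fractions arise where the authors' quantification divided reads between transcripts, so the values of single members are uncertain to that extent.

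The mid-sections contained the tissues named in the study's methods, together with nervous tissue. The 12 skeletal muscle markers summed to 54037 to 58568 TPM (transcript abundance scaled for length to the same total in every library) in mutants and 57170.2 to 61308 TPM in wild-type siblings, and the 10 YSL markers to 13952 to 16996 TPM in mutants, against 10755 to 20046 TPM in wild-type siblings. The 25 neuron markers summed to 525 to 641 TPM in mutants and 561 to 765 TPM in wild-type siblings, whereas the eye markers of the removed head stayed at 0.943 to 1.54 TPM in mutants, against 0.779 to 1.18 TPM in wild-type siblings in sum. The libraries held 52476194 to 59166585 counts in mutants and 45958694 to 49918655 in wild-type siblings, and so every mutant library was the deeper one. The targeted gene *dgat2* was at 12.7, 5.49 and 13.3 TPM in mutants, against 18.9, 9.53 and 2.54 TPM in wild-type siblings (log2 fold change 0.10, SE 0.56), so its level did not check the labels.

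Per transcript length, clustered protocadherins were present at low levels. Over all 6 libraries the mean was 22.7 TPM for *pcdh2g13*, 8.68 TPM for *pcdh1a6*, 6.73 TPM for *pcdh1g26*, 6.32 TPM for *pcdh1g9* and 6.24 TPM for *pcdh2ab9*, the 5 highest members. The ranges of the last 4 of these over the 6 pools overlapped one another. The lowest *pcdh1* member was *pcdh1g1*, with a mean of 0.303 TPM, and 4 of the 20 *pcdh1* members had a mean under 1 TPM. In *pcdh2*, 10 of the 12 members with reads did. In the values as quantified, *pcdh1* means thus ran from 0.303 to 8.68 TPM, with overlapping ranges among the 3 highest. In *pcdh2*, by contrast, a pair of members exceeded all others. The count table listed 1 *pcdh2* gamma gene against 17 in *pcdh1*. The part of the annotated transcripts in this contrast was not tested.

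Between the genotypes, some *pcdh1* genes passed the edgeR test before adjustment, in both directions, and no *pcdh2* gene did. After adjustment no gene of either cluster passed in that fit. Levels are given as CPM, the estimated counts scaled to a common library total after TMM correction for differences in composition. The genotypes were compared by the quasi-likelihood test of edgeR without further terms, and SE is the standard error of its log2 fold change. Of the 20 *pcdh1* members, all of which had enough counts to be tested, 13 had an unadjusted p under 0.05. Of these, 4 were higher in mutants (*pcdh1g1*, *pcdh1g11*, *pcdh1g22* and *pcdh1g32*) and 9 were lower (*pcdh1a4*, *pcdh1a6*, *pcdh1g2*, *pcdh1g3*, *pcdh1g9*, *pcdh1gb9*, *pcdh1g18*, *pcdh1g26* and *pcdh1gc6*). The higher members were so by 1.503-fold in *pcdh1g32* to 6.89-fold in *pcdh1g1*, and the lower ones by 1.36-fold in *pcdh1a6* to 3.80-fold in *pcdh1g18*. Over all 22762 genes tested, 5.2% had such a p, 3.21% higher and 1.99% lower in mutants. Among the other named genes on chromosome 10, 54 of 450 did (12%), 25 higher and 29 lower. On chromosome 14, that of *pcdh2*, 35 of 461 did (7.59%), 28 higher and 7 lower. The mutant and wild-type pools did not overlap in 12 of the 20 *pcdh1* genes, 4 with the mutants above and 8 with the mutants below. This held for 9.78% of all genes tested, 5.14% above and 4.63% below. Among the other named genes on chromosome 10 it held for 17.1% (33 genes above and 44 below). On chromosome 14 it held for 13.4% (45 above and 17 below). For the *pcdh2* cluster 12 of the 13 members were tested, and 0 of them had an unadjusted p under 0.05 or separate groups.

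After Benjamini-Hochberg adjustment over all genes tested, 0 of the 20 *pcdh1* members were under 0.05 in this edgeR fit, where only 0.0132% of all genes (3 genes) were called. The adjusted p-values of the 13 members ran from 0.108 for *pcdh1g11* to 0.935 for *pcdh1a6*. With the clutch as a block, edgeR gave the same 13 members an unadjusted p under 0.05, against 8.19% of all genes (5.14% higher, 3.05% lower). After adjustment this fit called *pcdh1g11* (adjusted p = 0.0224), *pcdh1a4* (0.0447) and *pcdh1g3* (0.0486), against 0.338% of all genes (0.272% higher, 0.0659% lower). DESeq2, the tool named in the study's methods, called 7 *pcdh1* members when used with transcript length offsets (2 higher and 5 lower), against 0.684% of all genes that it adjusted (0.418% higher, 0.266% lower). The 7 were *pcdh1g1*, *pcdh1g11*, *pcdh1a4*, *pcdh1g3*, *pcdh1g9*, *pcdh1g18* and *pcdh1gc6*. With both the offsets and the clutch block DESeq2 also called *pcdh1g2* and *pcdh1g22*, 9 in all (3 higher and 6 lower), against 1.46% of all genes (1.03% higher, 0.435% lower). The same tools called 0 *pcdh2* members, and DESeq2 with length offsets gave 1 of them, *pcdh2aa1*, an unadjusted p under 0.05. At that level the same fit had 788 genes higher in mutants and 545 lower, of the 22762 tested in edgeR.

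**Figure D1:**
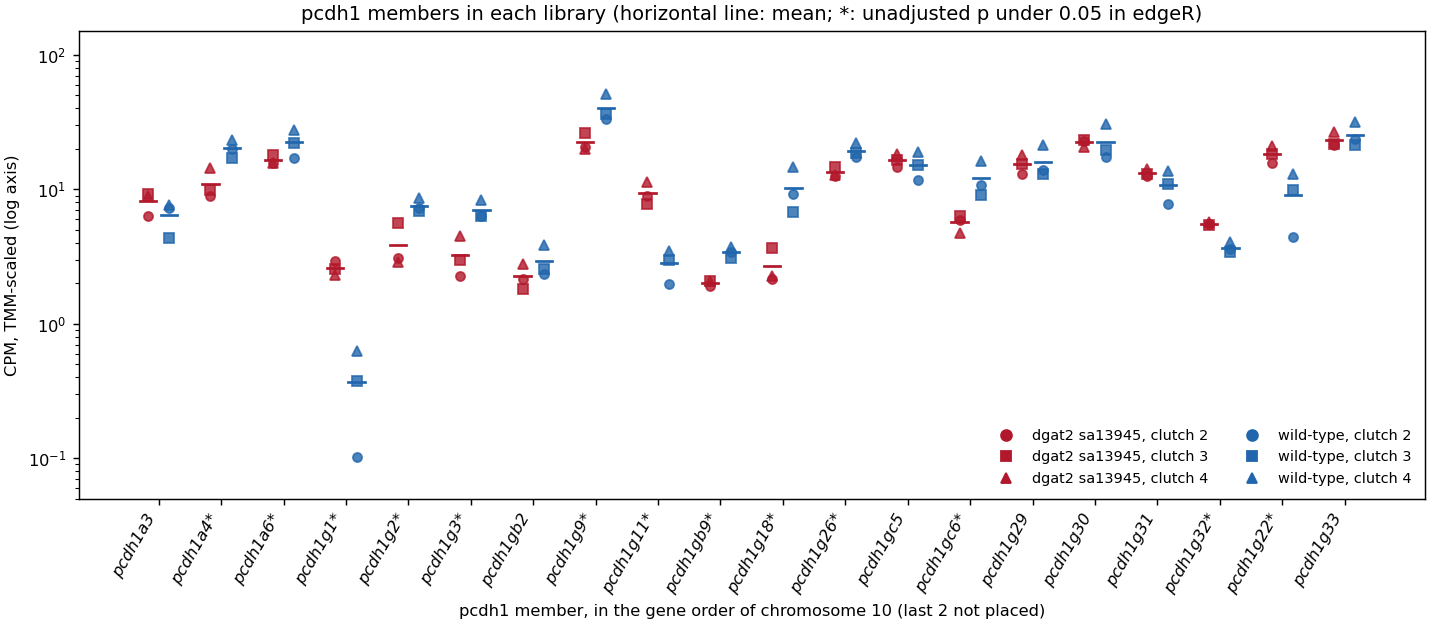
CPM of the 20 pcdh1 members (log axis) in each library, with mutants in red left of wild-type siblings in blue, symbols for clutches and lines for means, the 18 placed members in the gene order of chromosome 10 and then pcdh1g22 and pcdh1g33. Members higher and lower in mutants lie side by side: pcdh1g1 is at 2.32 to 2.91 CPM in mutants and 0.101 to 0.628 CPM in wild-type siblings, and its neighbors pcdh1g2 and pcdh1g3 are lower in every mutant pool.

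The largest fold change among the members was that of *pcdh1g1* (ENSDARG00000104007), the first gamma exon after the alpha genes in the gene order. It was at 2.91, 2.55 and 2.32 CPM in mutants, against 0.101, 0.373 and 0.628 CPM in wild-type siblings, in the order of clutches 2, 3 and 4. The mutant pools all stood above the wild-type pools, of which clutch 2 was the lowest. The wild-type values rest on 4.76, 18.6 and 29.8 estimated counts. The log2 fold change was 2.78 (SE 0.50, 95% interval 1.63 to 3.94; adjusted p = 0.23), and the log2 difference within clutches was 4.84, 2.78 and 1.88. *pcdh1g11* (ENSDARG00000101665), which the annotation used by the study lists as a polymorphic pseudogene, a class for genes that are coding in some haplotypes and not in others, was at 8.98, 7.77 and 11.4 CPM in mutants, against 1.97, 2.99 and 3.48 CPM in wild-type siblings. Its identifier had no match in the reference name table. The groups did not overlap, and the log2 fold change was 1.74 (SE 0.24, 95% interval 1.18 to 2.30). *pcdh1g22* (ENSDARG00000103013) had 15.7, 18.3 and 21.1 CPM in mutants, against 4.39, 9.89 and 13.04 CPM in wild-type siblings, so its groups were separate but its wild-type pools were spread. Its log2 fold change was 1.01 (SE 0.33), and 1.84, 0.89 and 0.70 within clutches. The smallest of the 4 was *pcdh1g32* (ENSDARG00000100829), the last of the placed gamma exons, with 5.53, 5.39 and 5.68 CPM in mutants, against 3.59, 3.41 and 4.06 CPM in wild-type siblings. Its pools were tightly grouped in both genotypes, and the log2 fold change was 0.59 (SE 0.15).

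Among the members that were lower in mutants, *pcdh1g18* (ENSDARG00000099447) had the largest fold change. It was at 2.17, 3.64 and 2.27 CPM in mutants, against 9.27, 6.74 and 14.7 CPM in wild-type siblings. No mutant pool reached a wild-type pool, and clutch 4 held the highest wild-type value. The log2 fold change was -1.93 (SE 0.32, 95% interval -2.66 to -1.19), and with DESeq2 and length offsets it was -1.63. *pcdh1g9* (ENSDARG00000057519), which had the highest mean CPM of the cluster in wild-type siblings, was at 20.8, 26.4 and 19.96 CPM in mutants, against 33.4, 36.1 and 50.9 CPM in wild-type siblings. Its mutant pools were all under its wild-type pools, with a log2 fold change of -0.84 (SE 0.18). *pcdh1gc6* (ENSDARG00000103950) had 5.91, 6.37 and 4.76 CPM in mutants, against 10.9, 9.12 and 16.3 CPM in wild-type siblings. Again the groups were separate, and the log2 fold change was -1.09 (SE 0.23). The neighbors of *pcdh1g1* went the other way. *pcdh1g2* (ENSDARG00000101232) was at 3.07, 5.59 and 2.88 CPM in mutants, against 7.26, 6.90 and 8.59 CPM in wild-type siblings (log2 fold change -0.98, SE 0.26). The mutant pool of clutch 3 came nearest to the wild-type pools. *pcdh1g3* (ENSDARG00000099646) was at 2.26, 2.96 and 4.50 CPM in mutants, against 6.31, 6.39 and 8.38 CPM in wild-type siblings (log2 fold change -1.11, SE 0.26). Its difference within clutches was -1.48, -1.11 and -0.90.

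Smaller differences of the same direction were seen in 2 more gamma exons. *pcdh1g26* (ENSDARG00000099931) was at 12.6, 14.8 and 12.8 CPM in mutants, against 17.4, 18.6 and 22.1 CPM in wild-type siblings (log2 fold change -0.53, SE 0.13), and *pcdh1gb9* (ENSDARG00000088475) at 1.91, 2.07 and 2.08 CPM in mutants, against 3.45, 3.08 and 3.71 CPM in wild-type siblings (-0.76, SE 0.19). Both had separate groups. Of the 3 alpha members, which share their own constant exons, *pcdh1a4* (ENSDARG00000097170) was at 8.95, 9.83 and 14.3 CPM in mutants, against 19.8, 17.1 and 23.5 CPM in wild-type siblings. The mutant pools were below all wild-type pools, with a log2 fold change of -0.87 (SE 0.20, 95% interval -1.32 to -0.41). *pcdh1a6* (ENSDARG00000104598) was at 15.8, 18.005 and 15.7 CPM in mutants, against 17.1, 22.3 and 27.7 CPM in wild-type siblings. Its groups overlapped through the wild-type pool of clutch 2, and the log2 fold change was -0.44 (SE 0.17, unadjusted p = 0.0346). This call was lost without the mutant pools of clutches 2 or 4 or the wild-type pools of clutches 3 or 4, at unadjusted p-values of 0.0868, 0.0965, 0.0708 and 0.119 in edgeR, and in DESeq2 with length offsets (0.0543). *pcdh1a3* had 6.32, 9.27 and 8.96 CPM in mutants, against 7.32, 4.36 and 7.65 CPM in wild-type siblings, and its groups overlapped (log2 fold change 0.35, SE 0.24).

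The other 6 *pcdh1* members (*pcdh1gb2*, *pcdh1gc5*, *pcdh1g29*, *pcdh1g30*, *pcdh1g31* and *pcdh1g33*) overlapped between the genotypes, with log2 fold changes from -0.37 in *pcdh1gb2* to 0.30 in *pcdh1g31*. Their 95% intervals all held 0, among them those of *pcdh1g29* (-0.53 to 0.42), *pcdh1g30* (-0.46 to 0.44) and *pcdh1g33* (-0.51 to 0.25). These intervals make no separate allowance for the division of reads between transcripts, so they do not bound the difference of a single member. Of these 6, 4 lay in the stretch from *pcdh1gc5* to *pcdh1g31* near the constant-exon end, where *pcdh1gc6* was the only other placed member. Higher and lower members were interspersed in the gene order, with *pcdh1g1* between *pcdh1a6* and *pcdh1g2* and *pcdh1g11* between *pcdh1g9* and *pcdh1gb9*.

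A further pair of identifiers with reads, unnamed in the count table, are called *pcdh1g14* and *pcdh1g13* in the reference name table and were not members. ENSDARG00000104057 (*pcdh1g14*) had 0.321, 0.482 and 0.523 CPM in mutants, against 2.02, 1.18 and 1.99 CPM in wild-type siblings (log2 fold change -1.97, SE 0.36; edgeR adjusted p = 0.231). ENSDARG00000098963 (*pcdh1g13*) was at a log2 fold change of 0.44 (SE 0.28). They were chosen after their values were seen.

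**Figure D2:**
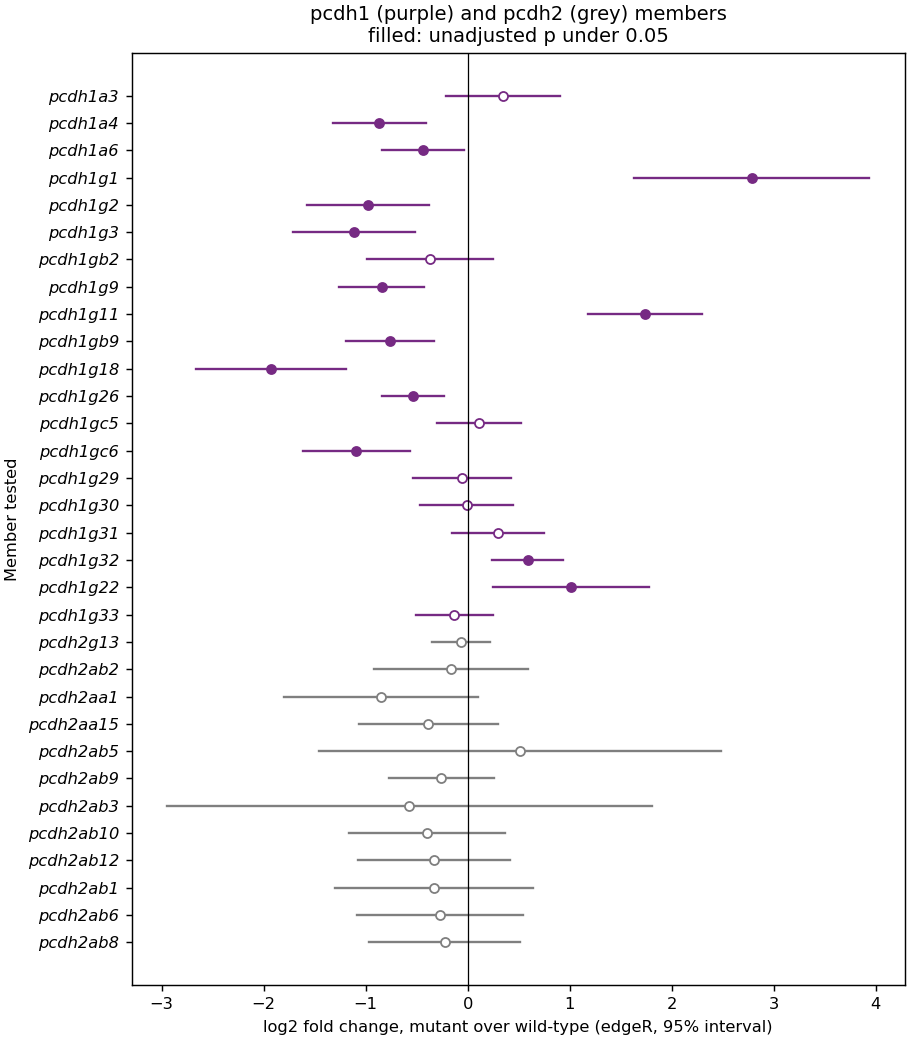
Log2 fold change of mutants over wild-type siblings (edgeR, horizontal lines are 95% intervals) for the 20 pcdh1 members in purple and the 12 tested pcdh2 members in grey, with filled points at an unadjusted p under 0.05. The 13 filled points are all pcdh1 members and lie on both sides of 0, and all 12 pcdh2 intervals hold 0.

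The *pcdh1* sum adds members that were higher and members that were lower in mutants. It was 199.7, 225 and 229.5 CPM in mutants of clutches 2, 3 and 4, against 219, 229.7 and 325 CPM in their wild-type siblings. The wild-type pool of clutch 4 stood above the other pools and the groups overlapped. Mutants averaged 218 ± 16.1 CPM and wild-type siblings 258 ± 57.99 CPM (SD, n = 3 each), a log2 difference of -0.24. Without the wild-type pool of clutch 4 this was -0.042, and 13 members (5 higher and 8 lower) had an unadjusted p under 0.05 in edgeR. This set lost *pcdh1a6* and gained *pcdh1g31* relative to the fit with all pools. Within clutches 2, 3 and 4 it was -0.14, -0.029 and -0.50. No p is given for a sum over members. In TPM, which the authors scaled for transcript length, the sums were 46.4, 48.998 and 58.1 TPM in mutants of clutches 2, 3 and 4, against 57.5, 55.2 and 72.7 TPM in their wild-type siblings, a log2 difference of -0.27. The mutant pool was the lower one in each clutch on this scale too, with log2 differences of -0.31, -0.17 and -0.32, although the groups overlapped. The 3 alpha members summed to 31.03, 37.1 and 38.9 CPM in mutants of clutches 2, 3 and 4, against 44.2, 43.7 and 58.9 CPM in their wild-type siblings (log2 difference -0.46), with every mutant pool below every wild-type pool. For the 17 gamma members the log2 difference was -0.20, with a mean of 182 ± 11.97 CPM for mutants and 209 ± 49.5 CPM for wild-type siblings (SD, n = 3 each).

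Nervous tissue was followed in the same pools. Of the 25 neuron markers 21 were lower in mutants, with a median log2 fold change of -0.21, whereas 11791 of all 22762 genes tested were lower. Of the 12 skeletal muscle markers 11 were also lower, with a median of -0.085. Of the 10 YSL markers 6 were lower and 4 higher. An unadjusted p under 0.05 in edgeR was seen in 4 YSL markers (3 higher and 1 lower in mutants) and 1 muscle marker (lower). In edgeR 1 of the 25 neuron markers, the glutamate transporter gene *slc17a6b* (named after its value was seen), had an unadjusted p under 0.05, against 5.2% of all genes. DESeq2 with length offsets gave such a p to 2 neuron, 4 YSL and 1 muscle markers. After adjustment, DESeq2 with length offsets and edgeR with the clutch block each called 2 YSL markers, against 0.684% and 0.338% of all genes. Both fits called 0 neuron and 0 muscle markers after adjustment. The neuron marker sum was 525, 569 and 641 TPM in mutants, against 625, 561 and 765 TPM in wild-type siblings. The groups overlapped, and in clutch 3 the marker sum was higher in the mutant pool, unlike the *pcdh1* sum. The wild-type pool of clutch 4 had the highest marker sum, as it had the highest *pcdh1* sum. Its YSL marker sum was the lowest of all pools, in which the sums were 15224, 16996 and 13952 TPM in mutants, against 20046, 19663 and 10755 TPM in wild-type siblings, and *dgat2* was lowest there too. As a percentage of the neuron marker sum, the *pcdh1* sum was 8.85%, 8.61% and 9.06% in mutants, against 9.20%, 9.84% and 9.50% in wild-type siblings, which did not overlap. For *pcdh2* it was 4.94%, 5.83% and 5.35% in mutants, against 5.98%, 5.37% and 4.66% in wild-type siblings, which overlapped. These percentages were not among the planned results and are given as a description. The part of nervous tissue or of tissue makeup in the *pcdh1* sums was not tested, and in such mixed pools fewer neurons and less RNA per neuron cannot be told apart.

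**Figure D3:**
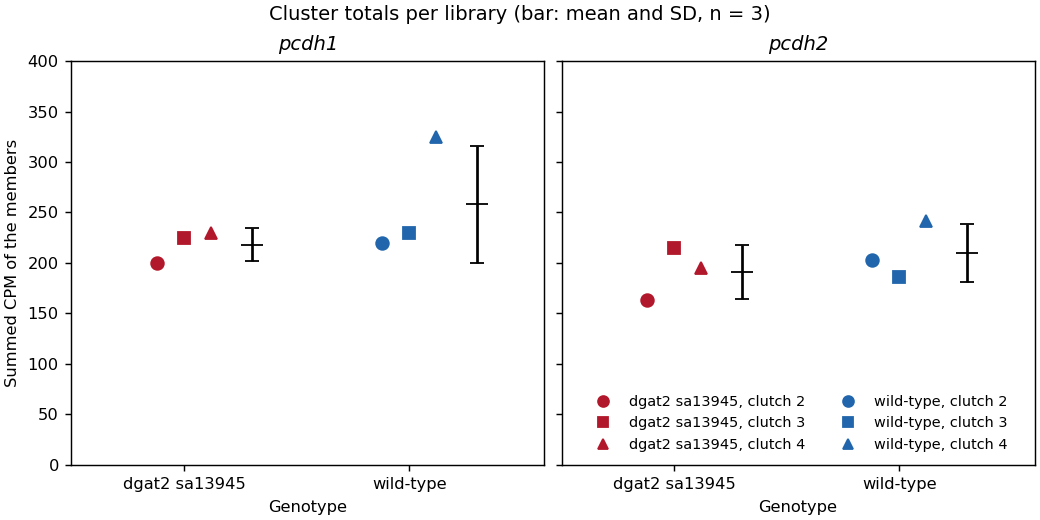
Summed CPM of the 20 pcdh1 members (left) and the 13 pcdh2 members (right) in each library, mutants left of wild-type siblings, with mean and SD bars (n = 3). The wild-type pool of clutch 4 is the highest in both panels, and the genotypes overlap in both.

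The genotypes also differed in the share of the *pcdh1* total that each member held. The 4 members higher in mutants, chosen by that difference, together made up 16.5% of the *pcdh1* CPM in the mutants, against 6.12% in wild-type siblings. The 9 lower members made up 37.04% in mutants and 55.3% in wild-type siblings. *pcdh1g9* alone held 10.3% of the *pcdh1* total in mutants and 15.5% in wild-type siblings, and *pcdh1g22* held 8.40% of the *pcdh1* total in mutants and 3.44% in wild-type siblings. To compare whole profiles, the shares of all members in 2 libraries were subtracted, and the absolute differences were summed and halved. This gives the percentage of the cluster's CPM that is placed on different members. Between pools of unlike genotype it was 15.4% to 20.5% within a clutch and 14.8% to 22.4% across clutches. Between pools of the same genotype it was 5.02% to 9.62%. The ranges did not overlap, so each *pcdh1* profile was nearer to the profiles of its own genotype from other clutches than to that of its sibling pool. This measure was chosen after the values of the members were seen and is given as a description.

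**Figure D4:**
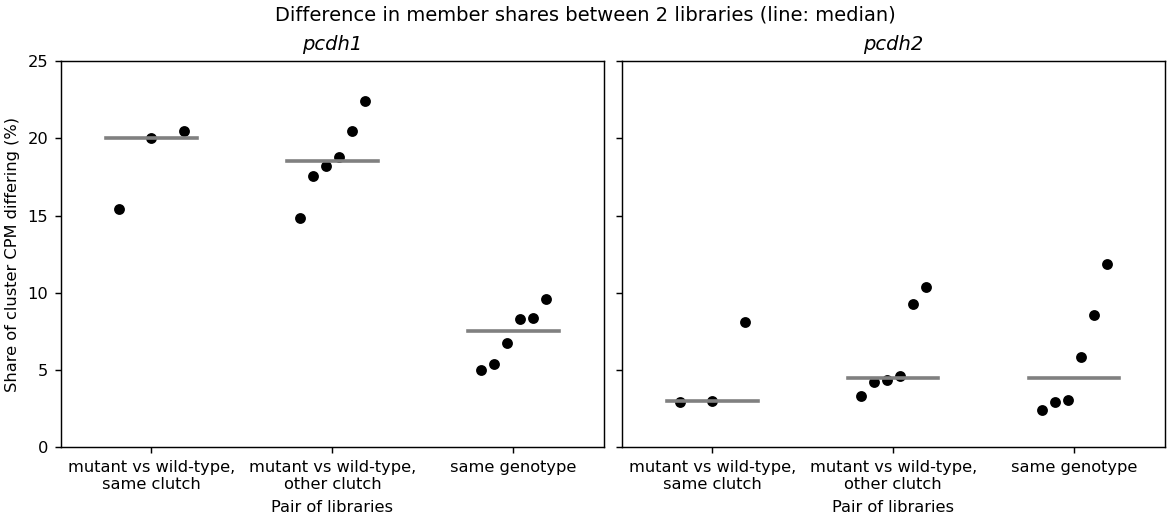
Percentage of the cluster CPM placed on different members between 2 libraries, for each pair of libraries (points; lines are medians), for pcdh1 (left) and pcdh2 (right). For pcdh1 the 9 pairs of unlike genotype lie at 14.8% to 22.4%, above the 6 pairs of like genotype, and for pcdh2 the kinds of pair overlap.

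In the *pcdh2* cluster no member passed the test. Its single gamma member in the table, *pcdh2g13* (ENSDARG00000098788), was the most abundant clustered protocadherin per transcript length, at 18.4, 23.3 and 24.5 TPM in mutants, against 25.3, 21.9 and 22.9 TPM in wild-type siblings. Its identifier is called *pcdh2g28* in the reference name table, so the name of this variable exon is uncertain. The pools of the genotypes overlapped, and its log2 fold change was -0.067 (SE 0.12, 95% interval -0.35 to 0.21), the narrowest interval among the members. The alpha member *pcdh2ab9* (ENSDARG00000101318) was next in its cluster, at 4.76, 5.75 and 6.56 TPM in mutants, against 6.62, 4.89 and 8.88 TPM in wild-type siblings. Its log2 fold change was -0.26 (SE 0.22, 95% interval -0.77 to 0.26), and the direction within clutches was not the same (-0.31, 0.32 and -0.64). *pcdh2aa15* (ENSDARG00000088136) followed at 0.510, 0.706 and 0.579 TPM in mutants, against 1.16, 0.510 and 0.756 TPM in wild-type siblings, with overlapping groups and a log2 fold change of -0.39 (SE 0.30).

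The remaining 10 *pcdh2* members were low. *pcdh2ac* was listed at 0 in all 6 libraries and was not tested. The other 9, all alpha genes, were at mean levels under 1 TPM and had log2 fold changes from -0.85 in *pcdh2aa1* to 0.51 in *pcdh2ab5*. Some of them varied widely between pools of the same genotype. *pcdh2ab3* had 2.66, 0 and 0.658 CPM in mutants, against 2.42, 1.26 and 1.27 CPM in wild-type siblings, and *pcdh2ab5* had 0.0339, 1.49 and 0.904 CPM in mutants, against 0.665, 0.420 and 0.627 CPM in wild-type siblings. In the mutants *pcdh2ab3* was highest in the pool where *pcdh2ab5* was lowest. The median half-width of the 95% intervals was 0.76 on the log2 scale for *pcdh2* members and 0.47 for *pcdh1* members. Of the 13 *pcdh1* members with an unadjusted p under 0.05, 9 had a log2 fold change larger in size than the *pcdh2* half-width and 4 a smaller one. The difference between the clusters was itself not tested.

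As a sum, *pcdh2* was at 163, 215 and 195 CPM in mutants of clutches 2, 3 and 4, against 203, 186 and 241 CPM in their wild-type siblings. The groups overlapped, with a log2 difference of -0.14 that was -0.32, 0.21 and -0.31 within clutches. Its profiles differed by 2.92% to 8.13% between the genotypes within a clutch and by 2.39% to 11.9% between pools of the same genotype. *pcdh2g13* and *pcdh2ab9* made up 67.2% and 26.7% of the total in mutants, against 64.5% and 28.4% in wild-type siblings, so this measure speaks mainly of that pair. The median log2 fold change was -0.25 over the 20 *pcdh1* members, -0.30 over the 12 tested *pcdh2* members and -0.01 over all genes tested. Without regard to sign, it was 0.67 for *pcdh1*, 0.33 for *pcdh2* and 0.14 over all genes. The direction was the same in all 3 clutches for 15 of the 20 *pcdh1* members (5 higher and 10 lower) and for 1 of the 12 *pcdh2* members, against 28.9% of all genes tested (14.6% higher, 14.3% lower). This held for 35.1% of the other named genes on chromosome 10 and 29.5% of those on chromosome 14.

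Of the genes related to the clusters, 1 had an unadjusted p under 0.05 in edgeR. The non-clustered protocadherins, such as *pcdh10a*, *pcdh17* and *pcdh19*, are single genes with no shared constant exons. All 16 that were found were tested, 0 had an unadjusted p under 0.05 in edgeR or in DESeq2 with length offsets, and the median log2 fold change was -0.080. Regulators known from mice (CTCF, the cohesin subunits and their loader, SMCHD1 and the DNA methyltransferases) had, with *setdb1a*, *setdb1b* and *rest*, 18 tested genes, of which 1 had an unadjusted p under 0.05 in edgeR and 0 in DESeq2 with length offsets. This was *dnmt3bb.1*, a de novo DNA methyltransferase, at 5.07, 5.12 and 5.46 TPM in mutants, against 6.62, 6.60 and 5.49 TPM in wild-type siblings. The difference was small (log2 fold change -0.24, SE 0.10; edgeR adjusted p = 0.951). Partners of clustered protocadherins, such as the kinases of the focal adhesion family, the WAVE complex and the protease Adam10, had 22 tested genes. Of these, 0 had an unadjusted p under 0.05 in edgeR or in DESeq2 with length offsets. Over all genes 5.2% passed at this level.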

How the data were processed

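The authors made poly(A)-selected libraries from 3 mutant and 3 wild-type pools, removed adapters and ribosomal reads, aligned to GRCz11 with STAR 2.7.9a and quantified with Salmon 1.10.1. The deposited values are estimated counts for each gene, with no scaling for depth, and TPM, in which the authors corrected for length and depth. Estimated counts were rounded to whole numbers for edgeR and DESeq2, and printed counts and CPM are unrounded.

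In edgeR 4.0.16 (R 4.3.3) the settings were TMM, filterByExpr by genotype, and Benjamini-Hochberg adjustment over 22762 genes. SE came from dividing the size of the log2 fold change by the square root of F, and intervals are 95% intervals. The study's methods name DESeq2 without a covariate, so genotype was the only term, and the clutch was tried as a block. The labels number the clutches, and pools of the same clutch deviated together (correlations 0.351, 0.310 and 0.185 across genes). The labels do not give further replication within a clutch, so p-values measure the spread between these pools. Alternatives were DESeq2 1.42.0, with and without length offsets recovered from count over TPM, other size factors, no filter on low counts, limma 3.58.1 on TPM with a pseudocount of 1 or 0.1 under log2 (genes at 1 TPM in at least 3 libraries), and leaving out each library. edgeR with and without the block, DESeq2 without length offsets and limma were run on simulated counts in which some genes were changed. The simulation held no clutch effect and no division of reads between transcripts, so it cannot speak to either. The DESeq2 fits with length offsets were not simulated.

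Members and lists were chosen with earlier results of these data known. Values in every library are given for members whose unadjusted p was under 0.05, that an edgeR or DESeq2 fit called after adjustment, or that were among the 3 highest of their cluster in TPM, and for others to show spread. Chromosomes and gene order came from the RefSeq table of GRCz12tu, and 32 of 33 identifiers matched the name table, 31 under the same name. With 45958694 to 59166585 counts per library, counting error limits only the lowest members.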

Additional observations from a re-analysis of the deposited data

How the results depend on the processing

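The number of *pcdh1* members with an unadjusted p under 0.05 was 13 in edgeR, 13 under the clutch block, 12 to 13 when each library was left out, 11 of the 18 that limma tested on either pseudocount, and 12 in DESeq2 with length offsets, where *pcdh1a6* was lost. In DESeq2 with length offsets, 788 of the 22762 genes tested in edgeR were higher in mutants and 545 lower at this level. The shares over all genes in limma and with a library left out were not computed. The 11 in limma were 2 higher and 9 lower. Limma kept genes at 1 TPM in at least 3 libraries, and some members met this in 1 genotype alone. *pcdh1g11* and *pcdh1g32* did so in mutants, and *pcdh1g18* and *pcdh1gb9* in wild-type siblings. The limma count is therefore not separate support for these members. Limma did not test *pcdh1g1*, and *pcdh1g32* had an unadjusted p of 0.0524 in limma with a pseudocount of 1. The number with an adjusted p under 0.05 depended on the tool. It was 0 in edgeR, with any size factors, without a filter, in both limma fits and with each library left out, but 3 (1 higher and 2 lower) with the clutch block, 7 with DESeq2 on rounded counts, 7 with DESeq2 and length offsets, and 9 (3 higher and 6 lower) with the offsets and the block. DESeq2 on rounded counts called 0.67% of all genes that it adjusted (0.436% higher, 0.235% lower). In edgeR the clutch block changed no other call of a member. The limma fits tested only 2 *pcdh2* members. For *pcdh2*, 1 member had an unadjusted p under 0.05 in DESeq2 with length offsets, and 0 to 1 when each library was left out. These were *pcdh2ab5* without the mutant pool of clutch 2 and *pcdh2aa1* without the mutant or the wild-type pool of clutch 3. *pcdh1g31* passed without the wild-type pool of clutch 4. The median *pcdh1* log2 fold change lay between -0.34 and -0.039 with each library left out, the value nearest to 0 being without the wild-type pool of clutch 4. The median of *pcdh2* lay between -0.47 and -0.17. The summed log2 difference of *pcdh1* lay between -0.35 and -0.042, and that of *pcdh2* between -0.23 and -0.026, the values nearest to 0 being without the wild-type pool of clutch 4. Averaged within clutches, as a replicate block, the sums differed by -0.22 and -0.14. Among the 16 members given in every library by rule, the direction turned in 2 of 96 values with a library left out, to 0.039 in *pcdh2g13* without the mutant pool of clutch 2 and 0.054 in *pcdh2ab9* without the wild-type pool of clutch 4, within ranges of -0.17 to 0.039 and -0.44 to 0.054. With the further identifiers of *pcdh1g13* and *pcdh1g14* added, an alternative chosen after seeing the data, 14 of 22 had an unadjusted p under 0.05. The limits throughout are 3 pools per genotype and the division of reads among transcripts that share exons. Reads of both genotypes were counted against GRCz11 alone, and sequence differences between the chromosome 10 copies were not examined. The part of such differences in the counts of single members was not tested.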
